A study of Mus musculus with 6 samples.

Results

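Eomes is a T-box transcription factor that natural killer (NK) cells need in order to mature, and it was mapped here by chromatin immunoprecipitation and sequencing (ChIP-seq) in mouse NK cells. The regions described are those that the annotation places in the first intron of a transcript and that recurred between experiments. Peaks of the 3 deposited lists that shared 1 bp or more were merged, regions with a peak from 2 or 3 lists were kept, and each took the annotation of its peak with the largest pileup. Of 20126 such reproducible regions, 875 (4.35%) lay in intron 1, against 2740 in later introns and 11896 at promoters. Of the 875, 435 were found in all 3 lists and 440 in 2.

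The cells were purified from splenocytes pooled over C57BL/6 wild types, 8 to 12 weeks old, and then cultured for 4 days with IL-15 at 100 ng/mL, so the lists describe cytokine-expanded cells and not resting ones. Each of 3 separate experiments gave an immunoprecipitated (IP) library made with an anti-Eomes antibody and an input library, and each list holds peaks of the IP over the input of that experiment. There was no control IP from cells without Eomes. Experiments are numbered by the replicate in the sample titles, and the deposited lists do not all carry the same numbers. Experiments 1, 2 and 3 gave 37456, 33841 and 46329 intervals, with lowest pileups of 8, 7 and 9. Pileup is the whole number the lists give at the summit, read here as IP fragments, and fold is the authors' ratio of IP to background for each peak. Sequencing depth is given neither by the labels nor by the file headers. A peak list says nothing of RNA, so the cell type could not be checked against expressed markers.

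The first intron follows the first exon of a transcript, and in many mammalian genes it is long and carries enhancers, the stretches of DNA at which transcription factors act on a promoter at a distance. T-box factors bind DNA at sites built on the letters AGGTGT. In NK cells Eomes works beside the related factor T-bet and is known for its part in maturation and in expression of the cytotoxic programme and of the receptor chain for IL-15. Because the annotation gives the promoter class to everything within 3000 bp of a transcript start, a region here lies in the part of intron 1 beyond that limit.

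The label holds for most of these regions and not for all. One Ensembl transcript on chromosome 8 (gene ENSMUSG00000092329, which the lists do not name) hosted 101 of the 875 regions (11.5%) in the first of its 15 introns. Peaks given to that intron were spread over 4.33 Mb, and the 101 regions were assigned by nearest start to 33 different genes, Irf8, Gse1, Galnt2 and Zfpm1 among them. Of the 101, 45 (44.6%) lay inside a protein-coding gene of RefSeq (GRCm38.p6), against 694 of the other 774 regions (89.7%). Chromosome 8 therefore held 132 regions, or 15.1% of the total, compared with 4.74% of later-intron regions. Outside that transcript chromosome 8 held 31 of 774 regions (4.01%). These 101 are called regions of the long chromosome 8 transcript below. Some results are also given without them, where this is stated, and all others include them.

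**Figure D1:**
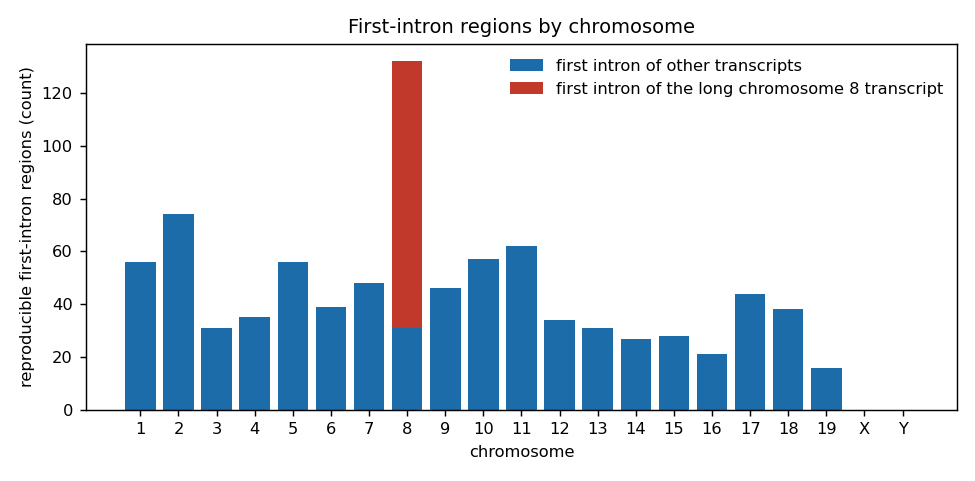
Number of reproducible first-intron regions (vertical axis, count) on each mouse chromosome (horizontal axis). Blue bars are first introns of other transcripts and the red bar is the long chromosome 8 transcript; chromosome 8 stands at 132 with it and 31 without it.

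Sequence was at hand where one of these regions overlapped a RefSeq promoter window, which runs from 250 bases before to 50 after a RefSeq transcript start on GRCm38.p6. This was so for 16 of the 875 regions, and in 11 of them a summit lay inside a window. These starts were not among the starts of the authors' annotation, since every region lay more than 3000 bp from those. Of the 837 regions on chromosomes that the promoter table covers, 60 (7.17%) lay within 3000 bp of a RefSeq start. These were 18 of 101 in the long chromosome 8 transcript and 42 of 736 elsewhere. The RefSeq starts used do not include every annotated start, so these counts may be low. The Itgae region, for example, was 3705 bp from its annotated start and 43199 bp from the nearest RefSeq start. The reverse also occurred: the leading region of Nek6 was 21777 bp from its annotated start and 2959 bp from a RefSeq start. The region in Ust, farthest of all by the annotation at -257724 bp, was 37836 bp from a RefSeq start. The first window shown is that of the strongest region. The second is of a region that the annotation places in a first intron of a named NK cell gene. The third is of a region whose 3 summits all fell inside the window. All 3 are given 5′ to 3′ on the strand of the RefSeq gene. Capitals mark the T-box core AGGTGT and a related unit, AGGTGNCA, on either strand. The 2 patterns overlap where a core is followed by CA. The unit AGGTGNCA was chosen after the sequence had been seen.

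Region at Irf8, window at the RefSeq start of the long non-coding RNA gene Gm33199, chr8:120786737-120787036, plus strand: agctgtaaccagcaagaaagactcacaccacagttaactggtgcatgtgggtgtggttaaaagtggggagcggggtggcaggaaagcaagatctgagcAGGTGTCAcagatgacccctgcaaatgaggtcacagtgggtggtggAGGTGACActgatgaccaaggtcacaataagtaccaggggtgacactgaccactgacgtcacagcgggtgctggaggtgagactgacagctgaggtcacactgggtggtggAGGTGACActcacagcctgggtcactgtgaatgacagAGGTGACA
Region in the first intron of Cx3cr1, window at a RefSeq start of Csrnp1, chr9:119982974-119983273, minus strand: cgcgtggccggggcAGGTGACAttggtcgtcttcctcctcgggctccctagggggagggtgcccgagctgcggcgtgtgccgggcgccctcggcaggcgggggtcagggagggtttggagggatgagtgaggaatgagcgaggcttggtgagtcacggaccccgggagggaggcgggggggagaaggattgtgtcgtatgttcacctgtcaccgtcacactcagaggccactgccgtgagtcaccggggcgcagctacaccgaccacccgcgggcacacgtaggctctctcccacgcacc
Region in the first intron of an unnamed gene (ENSMUSG00000050556), window at the RefSeq start of the long non-coding RNA gene Gm52568, chr2:167129178-167129477, plus strand: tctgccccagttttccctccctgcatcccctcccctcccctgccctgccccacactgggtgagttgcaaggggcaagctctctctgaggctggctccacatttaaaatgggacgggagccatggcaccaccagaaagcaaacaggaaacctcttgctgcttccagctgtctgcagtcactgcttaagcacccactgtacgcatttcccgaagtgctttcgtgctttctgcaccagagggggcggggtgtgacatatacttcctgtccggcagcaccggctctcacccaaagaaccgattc

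The window at Irf8 lay whole within the strongest of the 875 regions (chr8:120786645-120787447), and the summits of experiments 1, 2 and 3 stood at 120786952, 120786971 and 120786955. It held 1 AGGTGT, 114 bp from the nearest summit, and 4 copies of AGGTGNCA, set in a stretch that repeats itself imperfectly. Of 32851 RefSeq promoter windows, 5.46% held AGGTGNCA at all and 5 held 4 or more copies, 3 of which were overlapping windows of Gm33199. Whether reads could be placed uniquely in such a repeat was not tested. The Cx3cr1 window held 1 AGGTGNCA and no AGGTGT, and the Gm52568 window neither. Only the summit of experiment 3 (119983079) lay inside the Cx3cr1 window, while those of experiments 1 and 2 stood outside it at 119982615 and 119982646. Over all 21 overlapping windows, 5 (23.8%) held AGGTGT, against 13.7% of all RefSeq promoter windows. However, 3 of the 5 were overlapping windows of Gm33199, which also count 3 times in the shares that follow. The remaining windows shared only 16 bp with a region assigned to Cdh15 and 33 bp with a region in Myo1e. Their AGGTGT lay outside those regions, 267 and 118 bp from the nearest summit. The longer T-box site AGGTGTGA was in none of the 21, against 1.28% of all windows. Letters of the Runx site (TGTGGT) were in 5 of 21 windows against 16.8% of all, of the ETS site (AGGAAG) in 5 of 21 against 35.4%, of the AP-1 site (TGANTCA) in 3 of 21 against 7.81% and of the STAT site (TTCNNNGAA) in 1 of 21 against 8.30%. Each was searched on both strands, the Runx letters can overlap AGGTGT, and a window covers only part of a region.

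By the authors' fold, first-intron regions lay close to later-intron and promoter regions. The median fold of their peaks was 4.67, 5.17 and 5.28 in experiments 1, 2 and 3, against 4.81, 5.17 and 5.08 in later introns and 4.56, 5.17 and 4.97 at promoters. First introns thus stood below later introns in experiment 1, level with them in experiment 2 and above them in experiment 3, and the mean difference was 0.02 ± 0.17 (SD, n = 3). Against promoters the difference was 0.14 ± 0.16 (SD, n = 3). The interquartile ranges of the classes overlapped in every experiment. Peaks were chosen by the same IP against input contrast that gives the fold, so these values describe the classes and carry no test. At the upper end the classes parted more: 28.1%, 23.5% and 31.5% of first-intron peaks were above percentile 90 of their list by −log10 q, against 28.9%, 22.2% and 28.6% for later introns and 19.4%, 17.7% and 21.6% for promoters. In the long chromosome 8 transcript the median folds were 4.26, 5.02 and 5.21, against 4.72, 5.27 and 5.28 in the other first introns.

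**Figure D2:**
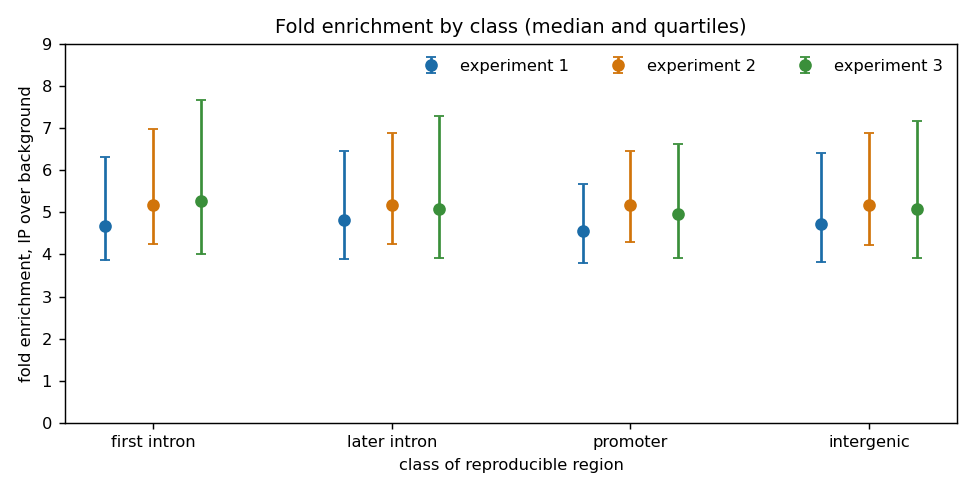
Fold enrichment of IP over background (vertical axis) for reproducible regions of 4 classes (horizontal axis) in each experiment; points are medians and bars run from the lower to the upper quartile. First-intron medians lie between 4.67 and 5.28, within the quartiles of the other 3 classes.

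Fold was higher the more lists held a region. First-intron regions of all 3 lists had median folds of 5.46, 6.03 and 7.11 in experiments 1, 2 and 3, those of 2 lists had 4.19, 4.35 and 4.28, and the 4088 first-intron regions of 1 list, which the rule leaves out, had 3.91, 4.31 and 3.86. These are the values on either side of the rule's limit, and they are given as a description. Experiment 3 held a peak at 803 of the 875 regions, experiment 1 at 722 and experiment 2 at 660. Of the 440 regions found in 2 lists, 215 came from experiments 1 and 3, 153 from 2 and 3, and 72 from 1 and 2. Within the 435 regions of all 3 lists, the fold was highest in experiment 3 at 229, in experiment 2 at 117 and in experiment 1 at 89. The coefficient of variation of the fold over experiments had a median of 24.0% (quartiles 15.9 and 33.5%). Ranks of fold were related between experiments across these 435 regions, and Spearman's rho was 0.52 between experiments 1 and 2, 0.56 between 1 and 3, and 0.49 between 2 and 3. Over 1241 later-intron regions it was 0.56, 0.58 and 0.57. Regions share their libraries, so no p was computed.

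Recovery of regions of 2 lists in the remaining experiment was examined by leaving each list out in turn. Regions were rebuilt from 2 lists, classed from those alone, and looked up in the remaining list. Of the first-intron regions, 437 of 590 (74.1%, 95% Wilson interval 70.4 to 77.4%) had a peak in experiment 1, 434 of 649 (66.9%, 63.2 to 70.4%) in experiment 2 and 436 of 508 (85.8%, 82.5 to 88.6%) in experiment 3. For later introns the shares were 69.2%, 62.8% and 85.3%, and for promoters 71.8%, 76.1% and 91.3%. Regions of all classes were recovered at 71.2%, 70.8% and 88.5%. First introns were recovered more often than later introns in 3 of 3 experiments, by 3.13 ± 2.32 percentage points (SD, n = 3; two-sided exact paired permutation p = 0.25, the smallest that 3 experiments allow). Against promoters the difference was -4.14 ± 5.86 points (SD, n = 3), with first introns higher in 1 of 3 (two-sided exact paired permutation p = 0.5). The 3 values of a class are not independent, since those found in all 3 lists enter each of them. First-intron regions of all 3 lists numbered 435, beside 437, 434 and 436 recovered. For later introns there were 1241, beside 1237, 1240 and 1251 recovered. The shares thus largely restate how many lists held each region, and the SD and p are not those of 3 independent tests. Neither difference could pass 0.05 in a design of this size. Without the long chromosome 8 transcript the differences were 3.35 and -3.93 points.

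**Figure D3:**
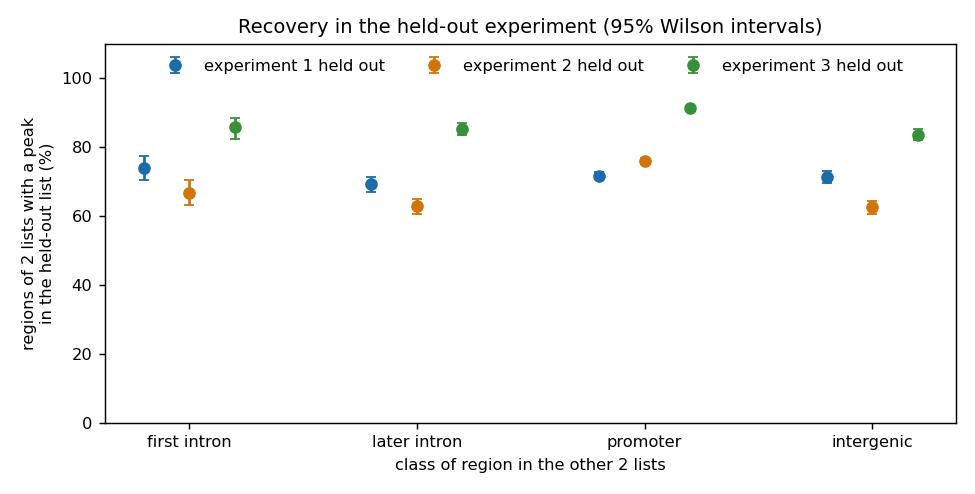
Share of regions found in 2 lists that had a peak in the held-out list (vertical axis, percent) by class (horizontal axis) and held-out experiment; bars are 95% Wilson intervals, which cover counting error only. First-intron shares are 74.1, 66.9 and 85.8%, each above the later-intron share of the same experiment.

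Recovery was lowest among weak regions. When all regions of 2 lists were ranked by mean −log10 q percentile and divided in 3, first-intron regions of the lowest part were recovered at 42.1%, 32.6% and 66.7% in experiments 1, 2 and 3, against 36.9%, 29.3% and 60.7% of later-intron and 50.5%, 57.4% and 82.4% of promoter regions. In the highest part the shares were 96.3%, 89.6% and 97.2% for first introns, 93.3%, 85.8% and 97.9% for later introns and 92.7%, 93.6% and 98.8% for promoters. In the middle part the shares were 72.8%, 66.3% and 88.2% for first introns, 67.2%, 61.2% and 90.2% for later introns and 75.5%, 80.7% and 94.1% for promoters. In the lowest and middle parts first introns were below promoters in every experiment, and in the highest part they were above them in experiment 1 and below them in 2 and 3. Against later introns, they were higher in all 3 parts in experiments 1 and 2. In experiment 3 they were higher in the lowest part only.

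Most first-intron regions lay within 25 kb of a start. The distance to the nearest annotated start had a median of 11900 bp and ran from 3021 to 257724 bp. The median was 11445.5 bp without the long chromosome 8 transcript and 14667 bp for later introns. From 3 to 5 kb of a start there were 148 regions (16.9%), from 5 to 10 kb 228 and from 10 to 25 kb 302. From 25 to 50 kb there were 112, and beyond 50 kb 85, of which 20 were in the long chromosome 8 transcript. The share found in all 3 lists was 54.7%, 53.1%, 47.0%, 47.3% and 44.7% in these bands, against 45.9%, 46.9%, 46.1%, 44.8% and 40.2% for later introns. Median folds showed no such order. In experiment 1 they were 4.59, 4.94, 4.63, 4.46 and 4.64 over the 5 bands. The nearest start lay downstream of 255 regions (29.1%), so that the start measured from was not that of the host transcript. The regions closest to the limit of the rule were in the first introns of Chsy1 (3021 bp, folds of 4.59 and 6.00 in experiments 1 and 3), Cdk2ap1 (3024 bp, mean fold 6.93 ± 1.00) and Por (-3042 bp, 3.62 ± 0.62). On its other side stood promoter regions at -2997 bp from Clstn3 (4.31 ± 1.00, n = 2), -2997 bp from Gm23251 (11.1 ± 2.91) and -2998 bp from Sirt2 (6.55 ± 0.83). The farthest were 1 region in Ust, at -257724 bp from its assigned gene Tab2 (7.39 ± 1.13), and 2 in Rora, which encodes a nuclear receptor used by innate lymphoid cells (7.88 ± 2.42 and 7.04 ± 2.74; SD, n = 3 where no other n is given).

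The gene whose intron holds a region is often not the gene the lists assign. Of 754 regions whose host has a name in the lists, 180 (23.9%) were assigned to another gene, and 103 of these 180 went to a Gm, Rik or microRNA symbol. Hosts are used below, and for hosts described by name the assigned symbol of a region is given where it differs. The named hosts came to 504, and 369 of them held 1 region, while 30 held 4 or more and 152 regions between them. Of the 875 regions, 118 lay in the only intron of their host transcript. No region lay on the X chromosome, which held 17 later-intron regions and 143 reproducible regions in all.

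The strongest region, the one with the AGGTGNCA repeat, was assigned to Irf8, an interferon regulatory factor of myeloid and NK cells, at 34436 bp from its start and beyond its end. Its pileup was 95, 76 and 176 and its fold 17.7, 31.5 and 32.9 in experiments 1, 2 and 3. Irf8 was assigned 12 regions of the long chromosome 8 transcript, 7 of them in all 3 lists. The second, chr8:120783771-120784206, had folds of 10.1, 12.1 and 19.1, and the other 10 had mean folds between 3.38 and 7.65. Experiment 3 was the highest of the 3 at both leading regions.

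Among hosts of their own, Gfod1 came first, with folds of 21.4, 18.8 and 21.3 in experiments 1, 2 and 3 at chr13:43250526-43251130. Tnfsf10, which encodes the death ligand TRAIL with which NK cells kill, had 17.8, 24.4 and 17.7 at chr3:27322486-27323245, 5425 bp from its start. Inpp4a, which encodes a phosphatase of inositol lipids, had 24.3, 22.8 and 16.0 at a region assigned to 4930439A04Rik. These 3 regions were above a fold of 16 in every experiment, and no experiment was the highest at all of them. Lrrk1, a kinase gene, had 22.9, 11.4 and 25.3, with experiment 2 at less than the others. Nek6, which encodes a kinase of mitosis, had 13.9, 15.9 and 25.2, with experiment 3 above the others. Apol9b had 14.8, 15.0 and 20.7. Agap1, which encodes a GTPase-activating protein, had 14.2, 22.3 and 13.0 at a region assigned to Gm25180, and Slc9a3r1, which encodes the scaffold NHERF1, had 15.6, 18.5 and 15.1. Their means were 19.9 ± 7.47, 18.3 ± 6.06, 16.8 ± 3.37, 16.5 ± 5.09 and 16.4 ± 1.86 (SD, n = 3 each). Spread over experiments thus ranged widely among regions of similar mean.

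Hosts were long genes. The 453 protein-coding hosts had a median length of 65287 bp, against 84226 bp for hosts of later-intron regions and 14997 bp for genes that host neither. The share of genes that were hosts was 0.0365%, 0.603%, 2.32% and 5.32% from the shortest to the longest quartile of gene length. The shares of the gene lists below are given beside those of all genes of the same length quartile, and the part that intron length plays was not tested.

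Transcription factors of NK cells and their innate relatives, the ILC1, hosted first-intron regions at 8 of 38 listed genes (21.1%, Wilson interval 11.1 to 36.3%), beside 2.07% of 21896 protein-coding genes. Counted by assigned symbol, 6 of 38 had a first-intron region, beside 1.98% of those genes. These 6 are not a part of the 8 hosts: Irf8, assigned 12 regions of the long chromosome 8 transcript, is among them. Bach2, Foxo1 and Runx2 are hosts whose regions were assigned to other symbols. All 8 were among the 22 listed factors in the longest quartile of genes, where 5.32% of all genes were hosts. Tox2, a relative of the NK cell factor Tox, led with folds of 21.6, 20.7 and 17.9 at 3559 bp from its start (chr2:163229013-163229768), and a second region there had a mean of 4.59 ± 1.12. Bach2, a repressor that keeps lymphocytes in an immature state, had 18.4, 11.1 and 16.2 at chr4:32257834-32258513, assigned to Bach2it1. Foxo1, a forkhead factor of quiescence, had 11.9, 7.94 and 19.4 at a region assigned to Gm20402. In all 3 the region was found in every experiment, and experiment 2 was the lowest at Bach2 and Foxo1.

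Nfatc1, whose product carries calcium signals to the nucleus, held 8 first-intron regions, 6 of them in all 3 lists, with mean folds from 4.01 to 9.36. Nfatc2, a member of the same family, held 2, at 9.32 ± 4.14 (SD, n = 3) and 7.12 ± 0.93 (SD, n = 2). The Runx genes, whose products act with T-box factors in lymphocytes, were represented by 2 regions of Runx2 (6.30 ± 0.58 and 5.34 ± 0.97), both assigned to Runx2os3, and 2 of Runx3 (5.55 ± 0.86, assigned to Gm16224, and 3.78 ± 0.46). Foxo3 had 1 at 4.50 ± 1.22 (SD, n = 3 each).

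Proximal signalling genes, which carry signals from activating receptors, were hosts at 7 of 38 (18.4%, interval 9.22 to 33.4%), again beside 2.07%, and all 7 were among the 26 in the longest quartile, beside 5.32%. Prkch, which encodes the eta form of protein kinase C, held 5 regions. The leading 1 had folds of 19.1, 14.5 and 16.2 at chr12:73604760-73605084 and the next 18.3, 7.18 and 13.2. Fyn, a Src family kinase that works downstream of NK receptors, held 3, led by one at 12.4, 6.94 and 10.4. Experiment 2 was the lowest at each of these 3. Pik3r5, a regulatory subunit of a phosphoinositide kinase, had 7.69, 9.71 and 9.56 at its leading region, and Inpp5d, which encodes the inhibitory phosphatase SHIP-1, had 7.44, 10.4 and 7.30. The others were Syk (6.52 ± 2.11, n = 2), Elmo1 (5.78 ± 0.40, n = 3) and Prkcq (3.91 ± 0.75, n = 2).

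Migration and adhesion genes were hosts at 5 of 24 (20.8%, interval 9.24 to 40.5%), beside 2.07% of all genes. By length these were 2 of 3 in the second quartile, 2 of 5 in the third and 1 of 8 in the longest, beside 0.603%, 2.32% and 5.32%. Itgb2, the integrin beta chain of LFA-1, had the most even leading region, with folds of 13.8, 15.1 and 14.7 at chr10:77540583-77541326. Itgae, which encodes the integrin chain CD103, had 6.33, 11.2 and 14.4, and Ccr7, a receptor for lymph node chemokines, had 9.83, 10.3 and 4.69. Experiment 3 was thus the highest at Itgae and the lowest at Ccr7. For Cx3cr1, a chemokine receptor gene of mature NK cells, the annotation placed 4 regions in a first intron. None was assigned to it: 3 went to Csrnp1 and 1 to Xirp1. Whether these 4 lie within the bounds of Cx3cr1 in RefSeq was not tested. The leading 1 of these, whose window is printed above, had 4.57, 6.57 and 6.91. That region and the one at chr9:119983699-119984035 each held a whole window at a RefSeq start of Csrnp1. Both thus lay at a start of another gene as well as in the intron that the annotation gives to Cx3cr1. Counted by assigned symbol, 4 of 24 listed genes had a first-intron region, and Cx3cr1 was not among them. Selplg, the selectin ligand, had 4.00 ± 0.67 (SD, n = 3).

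Cytotoxic genes were hosts at 3 of 18 (16.7%, interval 5.83 to 39.2%), beside 2.07%. They were 1 of 9 in the second quartile of length, 1 of 5 in the third and the only listed gene in the longest, beside 0.603%, 2.32% and 5.32%. Beside Tnfsf10 these were Rab27a, which encodes a GTPase of granule release (folds of 5.20 and 3.60 in experiments 1 and 3, assigned to Gm27186), and Gzma, which encodes granzyme A (3.55 and 3.68 in experiments 1 and 3). Experiment 2 had no peak at either. NK receptors and adaptors were hosts at 1 of 28 (3.57%), which is near the share of all genes. That gene was Klrb1f, of the NKR-P1 family, with 7.08, 6.15 and 11.3, and it was 1 of 15 in the second quartile, beside 0.603%. Cytokine receptors and their signalling genes were hosts at 1 of 35 (2.86%), which was 1 of 12 in the longest quartile beside 5.32%. It was Il2ra, the alpha chain of the IL-2 receptor, with folds of 7.60, 8.99 and 11.6 and pileups of 44, 33 and 59 at chr2:11653406-11654011. Cytokines and chemokines, whose median gene length was 4741 bp, were hosts at 0 of 15 (interval 0 to 20.4%), beside 2.07%. Of these 15, 11 were in the shortest quartile, beside 0.0365%.

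**Figure D4:**
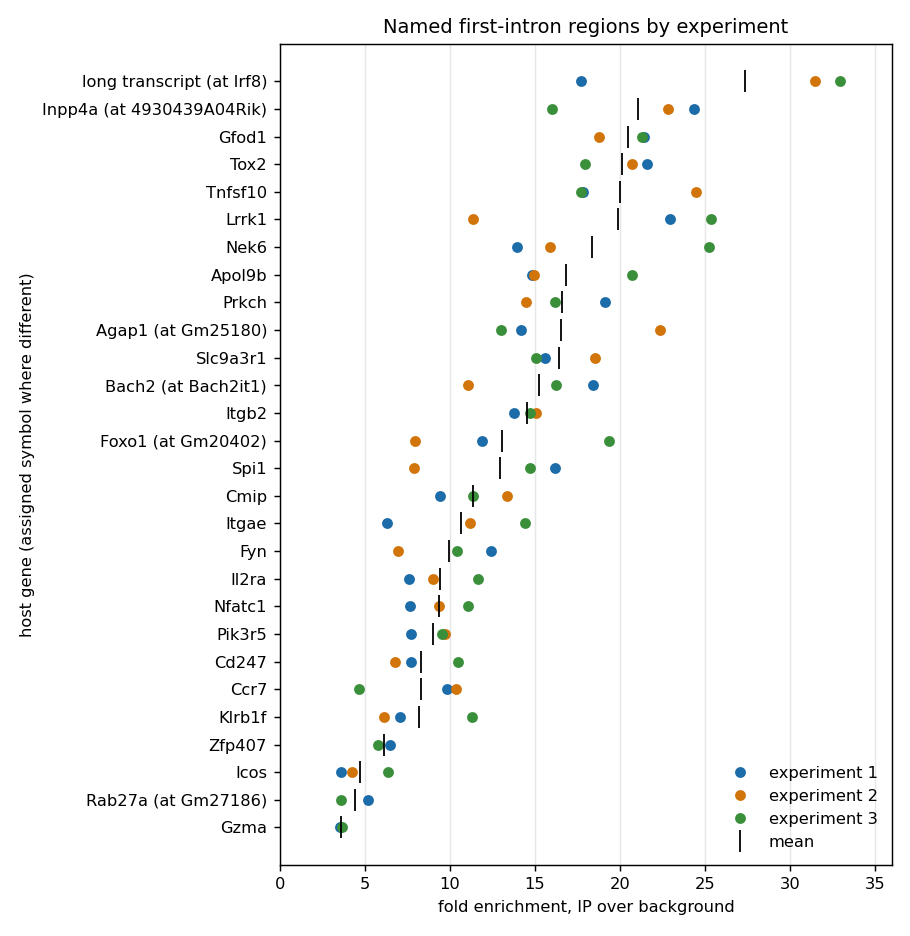
Fold enrichment of IP over background (horizontal axis) at named first-intron regions (vertical axis, host gene and assigned symbol where different); coloured points are experiments and the black bar is their mean. The region at Irf8 spans 17.7 to 32.9, and Gzma and Rab27a have points for 2 experiments.

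Of lists for other lineages, T cell genes were hosts at 2 of 19 (10.5%, interval 2.94 to 31.4%), beside 2.07%, as 1 of 6 in the third quartile of length and 1 of 4 in the longest, beside 2.32% and 5.32%. Cd247, the zeta signalling chain that NK cells also use, held 4 regions, 1 of them assigned to Gm23402, and was led by one at 7.69, 6.76 and 10.5, and Icos had 1 at 4.73 ± 1.43. Myeloid genes were hosts at 1 of 17 (5.88%), beside 2.07%, as 1 of 5 in the third quartile, beside 2.32%. This was Spi1, which encodes the myeloid factor PU.1, with 16.2, 7.87 and 14.7 at chr2:91087542-91087874 and a second region at 6.28 ± 2.18 (SD, n = 3). B cell genes were hosts at 0 of 15 (interval 0 to 20.4%), beside 2.07%. Ribosomal protein genes, with a median length of 3510 bp, were hosts at 0 of 30, beside 2.07%. Of these 30, 28 were in the shortest quartile, where 0.0365% of all genes were hosts. Lists of this size cannot tell 0 from such shares. Liver and neuronal genes were hosts at 1 of 20 (5.0%), by 2 regions of Hnf4a, a liver factor, at 4.60 ± 0.19 and 3.69 ± 0.81 (SD, n = 2 each), both assigned to Hnf4aos. It was 1 of 7 in the longest quartile, beside 5.32%.

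**Figure D5:**
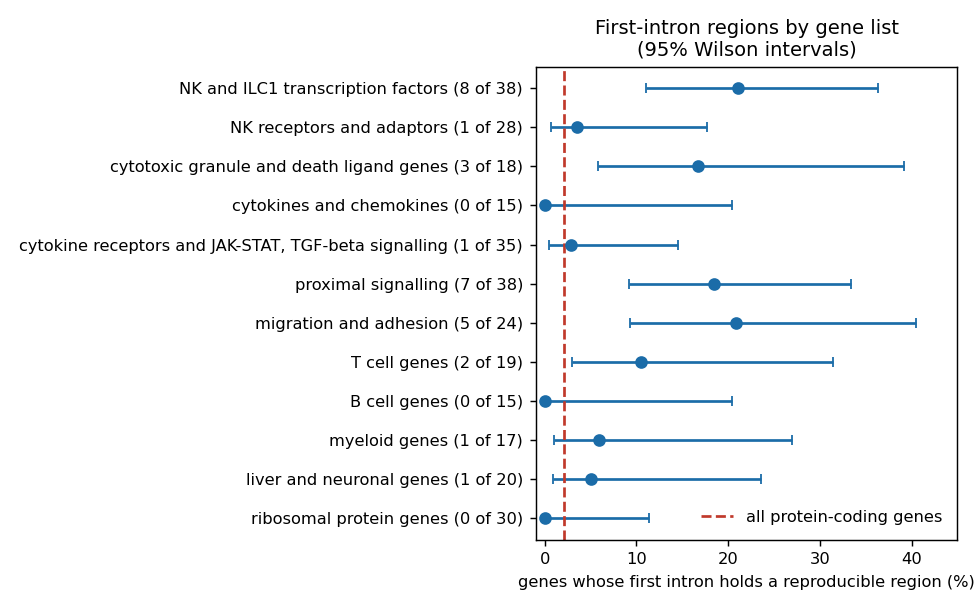
Share of listed genes whose first intron holds a reproducible region (horizontal axis, percent) for 12 gene lists (vertical axis, with counts); bars are 95% Wilson intervals and the dashed line is the 2.07% of all protein-coding genes. Transcription factors stand at 21.1% and migration and adhesion genes at 20.8%, while 3 lists stand at 0.

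Of the 453 protein-coding hosts, 301 (66.4%) also had a reproducible promoter region, against 63.1% of later-intron hosts, 34.8% of genes that host neither and 37.2% of all protein-coding genes. Of the 29 hosts in the gene lists, 10 had no such promoter region assigned to them: Tox2, Foxo1, Klrb1f, Tnfsf10, Il2ra, Itgae, Ccr7, Cx3cr1, Icos and Hnf4a. This is near the share over all protein-coding hosts, of which 66.4% had one. Promoter regions were counted by assigned symbol, so one assigned to another gene would be missed.

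Several first introns held a row of regions. Cmip, which encodes an adaptor protein of lymphocytes, held 10, the most of any named host, 4 of them in all 3 lists. Its leading region, chr8:117345366-117345838, had folds of 9.41, 13.4 and 11.4, and the other 9 had mean folds between 3.18 and 6.47. Zfp407, a zinc finger gene, held 8, of which 2 were in all 3 lists, with mean folds from 3.75 to 6.12. Gas7 and Ninj2 held 7 each, led by 9.13 and 9.95, and Ccnd3, which encodes cyclin D3, held 6, led by 6.59 ± 1.99 (SD, n = 3). Some regions of Zfp407 were assigned to Zadh2, some of Ninj2 to Gm25327 and a region of Gas7 to Gm12301. Regions of 1 intron share a host and are not independent of each other. Cmip lies on chromosome 8 outside the long transcript.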

How the data were processed

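The 3 peak lists, 1 per experiment, were used as deposited, on build mm10; the submitters' processing notes name Novoalign and ChIPseeker, and no source used here names the peak caller. Per the file headers, each peak carries a pileup (a signal at the summit), a fold (a ratio of IP to background), −log10 p-value and −log10 q-value, and a distance to the nearest start; all are the authors' values. The signal, fold and −log10 scores were used only to describe and rank peaks, with no rescaling.

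Rows were read with Python 3.11.15 and pandas 2.3.3. Where a list had several sub-peaks in a region, that of highest −log10 q was taken. The merging was checked against bedtools 2.31.1 (20126 regions by both), and recovery in a held-out list was tested on simulated data. For shares, 95% Wilson intervals are given; they reflect counting error alone. Recovery was compared with exact paired permutation tests (scipy 1.17.1); the test planned for fold is not printed, because fold comes from the contrast that chose the peaks.

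Hosts were read from the annotation and named as the lists pair IDs with symbols (754 of 875 regions). Symbols, or synonyms that fit 1 gene of that chromosome, tied hosts to the 21896 protein-coding genes of RefSeq (GRCm38.p6), among which all 297 listed genes were found. Promoter windows are RefSeq's; no genome was used, so motifs were not searched over whole regions. The members and lists were chosen with earlier results of these data known. Named are the 12 regions ranked highest over 3 lists, up to 3 hosts for each of 10 gene lists, the 3 hosts with most regions and the 3 regions nearest to and farthest from a start. Other hosts in a list, and the regions at Irf8, Gas7, Ninj2, Ccnd3, Clstn3, Gm23251 and Sirt2, were named after their values were seen.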

Additional observations from a re-analysis of the deposited data

How the results depend on the processing

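The 875 regions became 811 when peaks had to share 0.5 of the shorter interval, 626 with −log10 q of at least 3, 878 with the annotation of the highest −log10 q, 871 where every peak lay in intron 1 of the same gene, 774 without the long chromosome 8 transcript (chosen after seeing the data), 435 in all 3 lists, and between 508 and 649 with 1 experiment left out, lowest without experiment 3. First introns made up 24.6 ± 0.37% of intronic regions per experiment (SD, n = 3), 22.4% without the long transcript, and 24.7 to 25.7% with 1 experiment left out. The fold difference from later introns turned round: 0.02 as reported, -0.0133 in regions of all 3 lists, and between -0.0301 (without experiment 3) and 0.26 with 1 experiment left out; the cause was not tested. Against promoters it stayed positive, from 0.14 to 0.78. The difference in recovery from later introns stayed positive (1.23 to 3.81 points) and that from promoters negative (-4.23 to -0.11). With 1 experiment left out no list remained to be held out. By assigned symbol, 1.98% of genes had a first-intron region, liver and neuronal genes fell to 0 of 20, transcription factors to 6 of 38 and migration genes to 4 of 24. Those 6 include Irf8, which was not a host and was assigned regions of the long chromosome 8 transcript. Motif shares over regions, with their alternatives, were not run, since no genome was used. Classes were compared within experiments throughout. No paired analysis was possible between IP and input libraries, because every list is already a comparison of IP with the input of the same experiment, without values for the input alone. Binding weaker than a pileup of 8, 7 and 9 was not detectable.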
